A study of Mus musculus with 12 samples.

Results

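The EGR, IER and KLF early response genes examined here are 10 genes that are read out within minutes to hours when cells are stimulated or stressed: Egr1, Egr2, Egr3, Ier2, Ier3, Ier5, Klf2, Klf4, Klf6 and Klf10. They were picked by symbol from these gene families, and are 10 of the 24421 gene rows of the count table. All 10 passed the filter on low counts, and 15220 genes were tested. The study asked what the transcription factors TFEB and TFE3 do when DNA is damaged, and measured RNA in mouse embryonic fibroblasts (MEFs) with and without both factors. RNA abundance was counted per gene in 12 libraries, 3 in each of 4 groups.

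The Null control group held MEFs of the genotype labelled Null without etoposide, and the Null etoposide group held the same cells after 8 hr in 100 μM etoposide. The DKO control and DKO etoposide groups held TFEB/TFE3 DKO MEFs, edited with CRISPR, under the same conditions. Etoposide traps topoisomerase II on DNA and leaves strand breaks. The labels call the controls untreated, whereas the methods of the study describe a DMSO control, and the study calls the Null cells WT. The MEFs were immortalized with SV40, which acts on p53, and the labels name no more than 1 line for each genotype, so that genotype and line cannot be told apart. Nothing in the labels says that replicates came from separate cultures, so p-values measure only the spread between these samples, which may be technical. Counts on genes ran from 45577023 to 104120871 per library, with the shallowest and the deepest DKO etoposide libraries 2.07-fold apart. The 10 genes drew between 52275 and 238303 counts per library.

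EGR and KLF proteins are zinc finger transcription factors that bind GC-rich DNA, and IER proteins are small products without a zinc finger domain. In fibroblasts many of these genes are switched on by serum and growth factors through MAP kinases, SRF and its partner factors, without new protein synthesis, and their RNAs are short-lived. NAB1 and NAB2 bind EGR proteins and repress their targets.

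The targeted genes were read first. Tfeb stood at 38.9, 39.2 and 42.1 CPM (counts scaled to library size and TMM factors) in the Null control libraries and at 4.60, 6.09 and 4.68 CPM in the DKO control libraries, a 7.75-fold difference, and at 10.7 ± 0.678 against 1.91 ± 0.297 CPM (mean ± SD, n = 3) after etoposide. Tfe3 was still transcribed in DKO MEFs, at 92.7 ± 1.61 CPM against 113 ± 2.83 CPM in Null control MEFs. After etoposide its means were 68.7 CPM in Null and 68.5 CPM in DKO MEFs. A gene edited with CRISPR can keep its RNA, so Tfe3 counts do not check the labels.

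The cells were checked against marker genes. The summed level of the 10 fibroblast markers was 6824 ± 59.5 CPM in Null control, 11190 ± 335 in DKO control, 3768 ± 70.6 in Null etoposide and 4895 ± 180 in DKO etoposide MEFs. Single markers could go the other way: Vim stood at 1632 CPM in Null etoposide and 801 CPM in DKO etoposide MEFs, and Thy1 at 4.21 CPM in Null control and 0.037 CPM in DKO control MEFs, where it had at most 4 counts in a library. The 5 hematopoietic markers summed to 1.75, 2.14, 13.4 and 4.20 CPM in the same order, with Cd68 alone at 1.44, 1.56, 11.96 and 3.08 CPM, and Ptprc, Itgam and Adgre1 had at most 3 counts in every control library. The 5 muscle markers summed to 2.28, 0.575, 38.8 and 3.39 CPM, with Des at 2.11, 0.386, 36.3 and 2.44 CPM. The 5 epithelial markers summed to 0.860, 0.850, 2.93 and 1.92 CPM, and the 5 endothelial markers to 0.115, 0.0920, 2.55 and 1.08 CPM. Krt5, Krt14, Cdh5, Tie1 and Emcn had at most 3 counts in every control library. The part of these shifts in the results below was not tested.

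**Figure D1:**
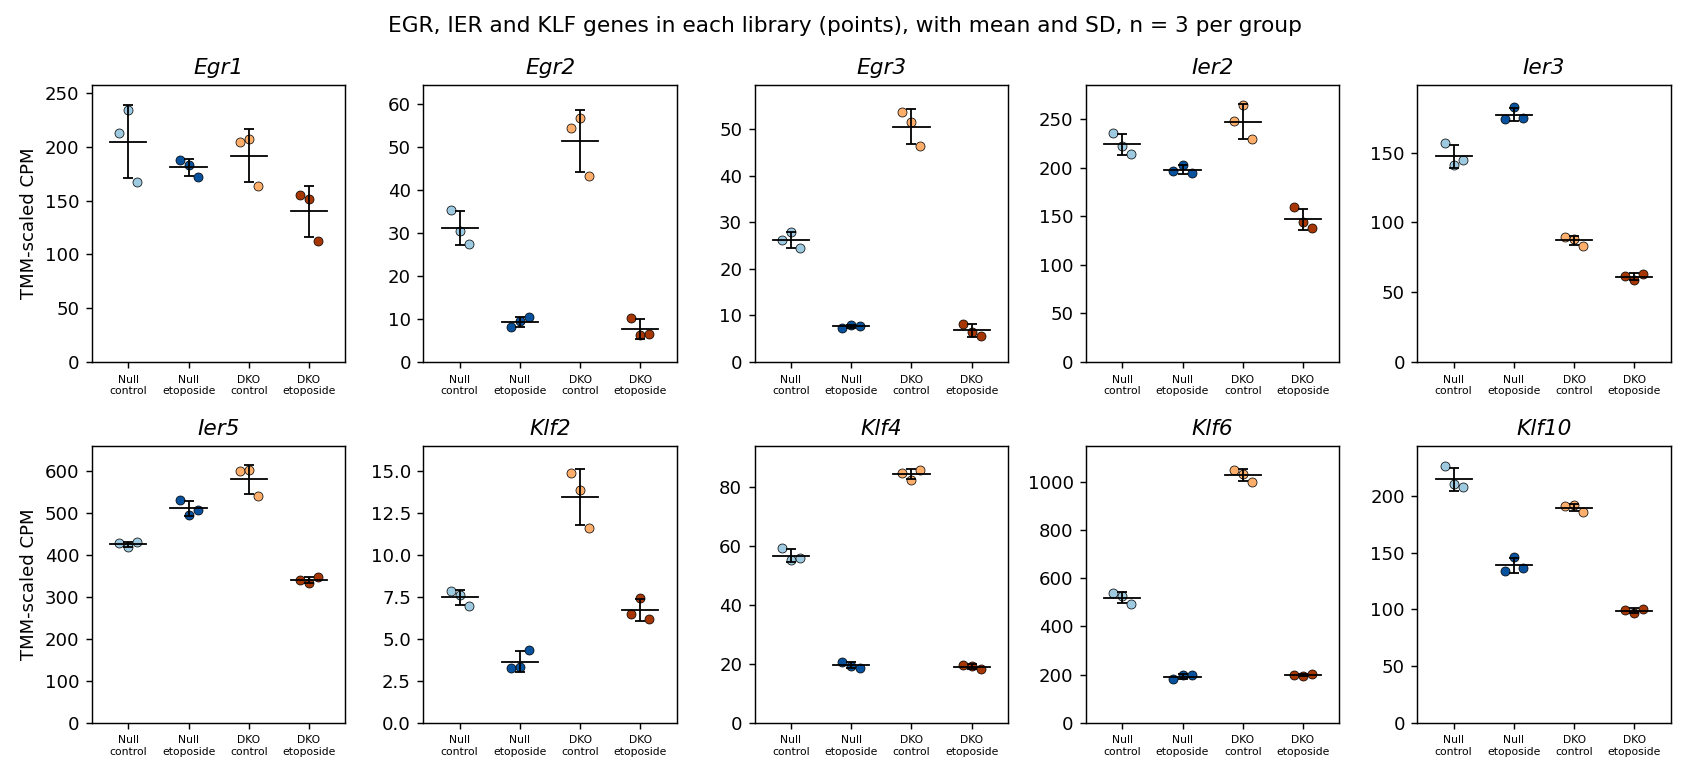
TMM-scaled CPM of the 10 genes (vertical axes, starting at 0) in each of the 12 libraries (points), with the mean and SD of the 3 libraries per group (horizontal axes). Klf6 fell from 520 to 191 CPM in Null and from 1027 to 197 CPM in DKO MEFs, while Ier3 and Ier5 rose in Null and fell in DKO MEFs.

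The first question was what etoposide did to these RNAs in Null MEFs. Of the 10 genes, 7 were lower and 2, Ier3 and Ier5, were higher after 8 hr, while Egr1 did not pass the test. Egr3, Egr2, Klf4, Klf6 and Klf2 fell more than 2-fold, and both rises were 1.20-fold. Among all genes tested 36.8% were called lower and 41.7% higher, and the median log2 fold change was -0.84 over the 10 genes against 0.067 over all genes. The 3 etoposide libraries lay apart from the 3 controls for 9 of the 10 genes, all but Egr1, as they did for 80.2% of all genes tested, where chance gives 10%. In bulk samples fewer cells of a type and less RNA per cell cannot be told apart.

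In DKO MEFs etoposide lowered all 10 genes, and each of the 10 had its 3 etoposide libraries below its 3 control libraries. Over all genes tested, 76.1% had groups that lay apart, in either direction, where chance gives 10%. The falls reached 7.60-fold for Egr3, 6.93-fold for Egr2, 5.20-fold for Klf6 and 4.45-fold for Klf4. Ier3 and Ier5, which rose in Null MEFs, fell 1.42-fold and 1.70-fold. Among all genes tested 31.3% were called lower and 44% higher, and the median log2 fold change was -0.97 over the 10 genes against 0.14 over all genes. Summed over the 10 genes, the level fell from between 1771 and 1924 CPM to between 1424 and 1447 CPM in the Null libraries. In the DKO libraries it fell from between 2388 and 2590 CPM to between 999 and 1058 CPM. Klf6 weighed most in both falls, with means of 520 and 191 CPM in Null and 1027 and 197 CPM in DKO MEFs.

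These splits moved with the scaling. With library size alone in place of TMM factors, the median of all genes shifted by 0.17 in Null and by 0.27 in DKO MEFs on the log2 scale, and the medians of the 10 genes shifted by the same amounts, to -0.67 and -0.70. The calls over all genes then split into 7656 higher and 4350 lower in Null MEFs, in place of 6342 and 5598, and into 9351 and 2975 in DKO MEFs, in place of 6702 and 4757. None of the 10 genes changed direction in a comparison where it was called, under any scaling tried.

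Klf6 and Klf4 were the KLF genes that fell furthest among the 10. Klf6 encodes a widely expressed zinc finger factor, and Klf4 encodes a factor linked to cell cycle arrest and used in reprogramming to pluripotency. Klf6 lies on the plus strand at chr13:5861482-5870394 and Klf4 on the minus strand at chr4:55527143-55532466 (GENCODE M21, GRCm38). Their promoter windows, of 300 bases around a gene's start, are shown because both genes fell together and both hold the E-box CACGTG, the core of the sites that TFEB and TFE3 are known to bind. The windows are chr13:5861239-5861538 and chr4:55532426-55532725 of GRCm38.p6, from RefSeq, written 5′ to 3′ on each gene's own strand. The capitals mark GTCACGTG, an extended E-box, in Klf6 and the E-box in Klf4.
Klf6: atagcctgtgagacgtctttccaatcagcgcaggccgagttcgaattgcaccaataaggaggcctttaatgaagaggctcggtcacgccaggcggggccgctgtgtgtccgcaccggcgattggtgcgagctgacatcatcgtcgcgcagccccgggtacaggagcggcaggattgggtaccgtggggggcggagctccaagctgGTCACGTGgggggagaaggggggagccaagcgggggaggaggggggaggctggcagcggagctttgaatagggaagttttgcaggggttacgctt
Klf4: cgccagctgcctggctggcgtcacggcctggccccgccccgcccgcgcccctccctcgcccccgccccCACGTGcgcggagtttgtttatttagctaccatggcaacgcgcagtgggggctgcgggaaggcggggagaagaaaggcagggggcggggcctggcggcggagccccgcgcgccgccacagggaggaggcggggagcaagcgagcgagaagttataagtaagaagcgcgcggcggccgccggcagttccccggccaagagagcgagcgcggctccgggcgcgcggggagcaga
The E-box was found, on either strand, in 7.15% of all 32851 windows of this length, and the extended form, which contains it, in 2.25%. A match describes the letters only.

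Klf6 stood at 538, 528 and 493 CPM in the Null control libraries and at 179, 197 and 198 CPM after etoposide. In DKO MEFs it went from 1049, 1033 and 1000 CPM to 199, 192 and 202 CPM. The control groups lay far apart from each other, whereas the etoposide libraries of both genotypes overlapped. The fall was 2.71-fold in Null (log2 fold change -1.44 ± 0.043 SE) and 5.20-fold in DKO MEFs (-2.38 ± 0.044), each in 3 of 3 libraries (edgeR's quasi-likelihood test, Benjamini-Hochberg adjusted p = 1.07e-14 and adjusted p = 4.74e-17). The fall in DKO MEFs was 1.92-fold deeper.

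Klf4 stood at 59.2, 55.3 and 55.9 CPM in the Null control libraries and at 20.7, 19.2 and 18.6 CPM after etoposide. In DKO MEFs the values were 84.9, 82.5 and 85.9 CPM before and 19.7, 19.3 and 18.1 CPM after. As with Klf6, the groups differed before etoposide and overlapped after it. Klf4 fell 2.91-fold in Null and 4.45-fold in DKO MEFs (log2 fold changes -1.54 ± 0.047 and -2.15 ± 0.048 SE).

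Egr2 and Egr3 showed the deepest falls of the 10 genes in both genotypes. EGR2 is needed for myelination and hindbrain patterning, and EGR3 for muscle spindles. Egr2 lies on the plus strand at chr10:67535475-67542188 and Egr3 on the plus strand at chr14:70077203-70082614. Egr2 had 5 promoter windows, and 4 of them held a CArG box, the site of SRF, which 1.63% of all windows hold. In 3 of those 4 windows, which overlap, it is the same match. Srf itself fell beside these genes, and its part in their fall was not tested. The window chr10:67537680-67537979 is shown, with the CArG box in capitals.
Egr2: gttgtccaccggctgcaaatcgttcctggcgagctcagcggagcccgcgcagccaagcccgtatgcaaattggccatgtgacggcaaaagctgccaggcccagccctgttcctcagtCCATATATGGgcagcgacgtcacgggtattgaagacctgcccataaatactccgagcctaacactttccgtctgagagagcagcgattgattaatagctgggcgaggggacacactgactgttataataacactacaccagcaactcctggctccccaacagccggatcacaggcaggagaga
Egr2 stood at 35.3, 30.5 and 27.4 CPM in the Null control libraries and at 8.08, 9.44 and 10.5 CPM after etoposide. In DKO MEFs it went from 54.4, 56.8 and 43.2 CPM to 10.2, 6.24 and 6.39 CPM. All control libraries lay above all etoposide libraries, and the etoposide groups overlapped. Egr2 fell 3.34-fold in Null (log2 fold change -1.74 ± 0.15 SE) and 6.93-fold in DKO MEFs (-2.79 ± 0.16).

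Egr3 went from 26.2, 28.0 and 24.5 CPM to 7.30, 8.00 and 7.64 CPM in Null MEFs. In DKO MEFs it went from 53.7, 51.4 and 46.4 CPM to 8.24, 6.45 and 5.64 CPM. The control groups did not overlap, with DKO MEFs higher, and the etoposide groups did. The fall of Egr3 was 3.42-fold in Null and 7.60-fold in DKO MEFs (log2 fold changes -1.78 ± 0.098 and -2.93 ± 0.10 SE). In the DKO etoposide group replicate 1 had the highest Egr2 and Egr3 values.

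Klf2 and Klf10 fell less. Klf2, a factor known from endothelial cells under shear stress and from resting lymphocytes (plus strand, chr8:72319033-72321656), had from 268 to 1276 counts per library. It stood at 7.84, 7.61 and 6.95 CPM in Null control and at 3.27, 3.32 and 4.35 CPM in Null etoposide libraries. In DKO MEFs the values were 14.9, 13.9 and 11.6 CPM before and 6.48, 7.46 and 6.18 CPM after. Klf2 fell 2.06-fold in Null and 2.01-fold in DKO MEFs (log2 fold changes -1.04 ± 0.13 and -1.01 ± 0.12 SE). Klf10, first described as a gene induced by TGF-beta (minus strand, chr15:38291463-38300706), fell from between 208 and 226 CPM to between 134 and 146 CPM in Null and from between 186 and 192 CPM to between 96.6 and 101 CPM in DKO MEFs. Those falls were 1.55-fold and 1.92-fold.

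Egr1 and Ier2 moved little in Null MEFs. Egr1, the best known growth factor-induced member of its family (plus strand, chr18:34859823-34864984), stood at 213, 234 and 167 CPM in Null control and at 188, 183 and 172 CPM in Null etoposide libraries. The groups overlapped, and the log2 difference of -0.18 ± 0.12 SE, with a 95% interval from -0.44 to 0.077, did not pass (edgeR's quasi-likelihood test, Benjamini-Hochberg adjusted p = 0.184). Without Null control replicate 3, the lowest of its group, it was -0.32 and passed, as it did without a filter (-0.21) and with the replicate number as a block (-0.16). Over the 14 alternatives tried the difference ran from -0.32 to -0.012. In DKO MEFs Egr1 fell from 205, 207 and 163 CPM to 155, 152 and 113 CPM, 1.37-fold (edgeR's quasi-likelihood test, Benjamini-Hochberg adjusted p = 0.00294), a call that was lost with library size alone (log2 fold change -0.18).

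Ier2, which encodes a nuclear protein with a part in transcription (minus strand, chr8:84661331-84662852), fell from between 215 and 235 CPM to between 195 and 203 CPM in Null MEFs. The groups did not overlap, but the change was only 1.13-fold (log2 fold change -0.18 ± 0.056 SE, edgeR's quasi-likelihood test, Benjamini-Hochberg adjusted p = 0.00844). It was lost with library size alone (-0.0097) and with the stricter filter on mean CPM (-0.091). In DKO MEFs Ier2 fell from between 230 and 265 CPM to between 138 and 159 CPM, 1.69-fold (log2 fold change -0.75 ± 0.056 SE).

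Ier3 and Ier5 went opposite ways in the 2 genotypes. IER3 (also known as IEX-1) acts in cell survival and death under stress, and IER5 binds the heat shock factor HSF1, and both have been described as p53 targets. Ier3 lies on the plus strand at chr17:35821684-35822923 and Ier5 on the minus strand at chr1:155096361-155099636. Their promoter windows, chr17:35821463-35821762 and chr1:155099587-155099886, are shown because these genes alone rose in Null MEFs. The capitals mark the GC box GGGCGG on either strand, which 35.7% of all windows hold.
Ier3: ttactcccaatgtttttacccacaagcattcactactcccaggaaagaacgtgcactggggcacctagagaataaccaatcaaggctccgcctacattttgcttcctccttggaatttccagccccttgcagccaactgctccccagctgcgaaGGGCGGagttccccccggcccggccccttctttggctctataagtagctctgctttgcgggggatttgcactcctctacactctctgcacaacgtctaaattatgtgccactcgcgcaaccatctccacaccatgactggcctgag
Ier5: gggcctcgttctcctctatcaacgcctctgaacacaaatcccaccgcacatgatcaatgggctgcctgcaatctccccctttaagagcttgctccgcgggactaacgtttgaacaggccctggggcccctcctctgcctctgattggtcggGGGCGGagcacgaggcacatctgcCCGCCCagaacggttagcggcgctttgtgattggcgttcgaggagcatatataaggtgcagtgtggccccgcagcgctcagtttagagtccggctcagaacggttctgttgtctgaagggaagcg
Neither window held an E-box, which 7.15% of all windows hold. The Klf2 window and the Egr2 window shown above, of genes that fell in both genotypes, held none either. The Ier5 window held 1 p53 half-site, as do 8.36% of all windows.

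Ier3 stood at 157, 141 and 144 CPM in the Null control libraries and at 174, 183 and 175 CPM after etoposide. In DKO MEFs it went from 89.5, 88.1 and 83.4 CPM to 61.4, 58.8 and 63.3 CPM. Every Null library was above every DKO library. Ier3 rose 1.20-fold in Null (log2 fold change 0.27 ± 0.044 SE, edgeR's quasi-likelihood test, Benjamini-Hochberg adjusted p = 4.11e-05) and fell 1.42-fold in DKO MEFs (-0.51 ± 0.045, adjusted p = 2.9e-08).

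Ier5 stood at 427, 418 and 429 CPM in the Null control libraries and at 529, 494 and 507 CPM after etoposide. In DKO MEFs it went from 598, 600 and 539 CPM to 340, 333 and 346 CPM. The 4 groups did not overlap, with DKO control the highest and DKO etoposide the lowest. Ier5 rose 1.20-fold in Null (log2 fold change 0.26 ± 0.040 SE, edgeR's quasi-likelihood test, Benjamini-Hochberg adjusted p = 1.36e-05) and fell 1.70-fold in DKO MEFs (-0.77 ± 0.040, adjusted p = 2.49e-11).

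**Figure D2:**
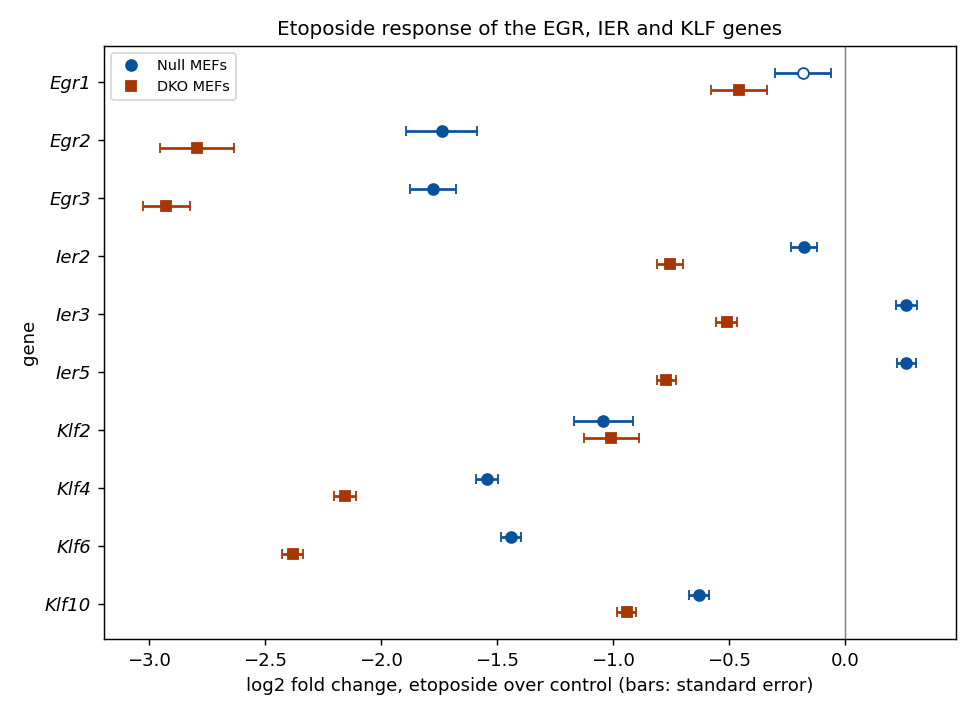
Log2 fold change of each gene (vertical axis) after etoposide over control in Null MEFs (blue circles) and DKO MEFs (brown squares), with standard errors. Filled symbols passed the test at an adjusted p of 0.05; in Null MEFs Egr1, at -0.18, did not.

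The next question was whether the response itself differed between genotypes, which the interaction term tests as the log2 response in DKO minus that in Null MEFs. The term was called below 0 for 8 of the 10 genes, which in DKO MEFs fell further or fell where Null MEFs rose. These terms were -1.15 ± 0.14 SE for Egr3, -1.05 ± 0.22 for Egr2, -1.03 ± 0.057 for Ier5, -0.94 ± 0.060 for Klf6, -0.77 ± 0.064 for Ier3, -0.61 ± 0.066 for Klf4, -0.58 ± 0.079 for Ier2 and -0.31 ± 0.059 for Klf10. Their adjusted p-values ran from 1.89e-10 for Ier5 to 0.000551 for Egr2 (edgeR's quasi-likelihood test, adjusted after Benjamini-Hochberg). Among all genes tested 24.7% were called below 0 and 29.9% above, with medians of -0.69 over the 10 genes and 0.049 over all genes. With library size alone the split over all genes was 5782 above and 3110 below, in place of 4553 and 3757, and the median of all genes shifted by 0.10. With DESeq2 size factors the split turned, to 3862 above and 4236 below, and the same number of the 10 genes, 8, was called below 0 under either scaling.

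The terms of Egr1 and Klf2 did not pass. That of Klf2 was 0.034 ± 0.17 SE with a 95% interval from -0.33 to 0.40. That of Egr1 was -0.28 ± 0.17 SE with an interval from -0.64 to 0.086, and it passed with the replicate number as a block (-0.30). Over the 19 alternatives tried the Egr1 term ran from -0.38 to -0.15. The 95% intervals of Klf2 and Egr1 do not show equal responses.

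Before etoposide, the question was how DKO MEFs differed from Null MEFs. Of the 10 genes, 7 were higher in DKO MEFs, 2, Ier3 and Klf10, were lower, and Egr1 did not pass. Klf6 was 1.98-fold, Egr3 1.93-fold, Klf2 1.80-fold, Egr2 1.66-fold, Klf4 1.49-fold and Ier5 1.36-fold higher. Ier3 was 1.69-fold and Klf10 1.13-fold lower. Among all genes tested 33.4% were called higher and 34.1% lower, with medians of 0.51 over the 10 genes and -0.022 over all genes. The groups lay apart for 8 of the 10 genes, all but Egr1 and Ier2, and for 70.5% of all genes tested, where chance gives 10%.

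The largest of these differences, that of Klf6, had a log2 value of 0.98 ± 0.042 SE, with 3 of 3 DKO libraries above all Null libraries (edgeR's quasi-likelihood test, Benjamini-Hochberg adjusted p = 2.45e-12). That of Ier3 was -0.76 ± 0.045 SE (edgeR's quasi-likelihood test, Benjamini-Hochberg adjusted p = 1.58e-10). The difference of Ier2 was small, 1.11-fold (log2 0.14 ± 0.056 SE, edgeR's quasi-likelihood test, Benjamini-Hochberg adjusted p = 0.0305), and its call was lost with library size alone (0.024) and without Null control replicate 2 (0.14) or 3 (0.11), or DKO control replicate 1 (0.14) or 2 (0.089). For Egr1 the log2 difference was -0.094 ± 0.12 SE with a 95% interval from -0.35 to 0.16. With library size alone the calls over all genes split into 3997 higher and 6473 lower, in place of 5080 and 5183, as the median of all genes shifted by -0.12, and 6 of the 10 genes were called higher and 2 lower.

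After etoposide most of these differences were gone or had turned. Of the 10 genes, only Klf2 was higher in DKO MEFs, 5 (Egr1, Ier2, Ier3, Ier5 and Klf10) were lower, and Egr2, Egr3, Klf4 and Klf6 did not pass. Among all genes tested 36.9% were called higher and 35.2% lower, with medians of -0.35 over the 10 genes and -0.0039 over all genes. With DESeq2 size factors the split over all genes turned from 5612 higher and 5351 lower to 4991 and 5866, and 1 of the 10 genes was called higher and 7 lower. The groups lay apart for 6 of the 10 genes, against 74.7% of all genes tested and 10% by chance. These comparisons share libraries with the etoposide comparisons above, so their values are not separate evidence.

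Klf6 and Klf4, which had been higher in DKO MEFs, reached nearly the same level in both genotypes, 191 ± 10.5 and 197 ± 5.08 CPM for Klf6 and 19.5 ± 1.09 and 19.0 ± 0.790 CPM for Klf4 (Null and DKO etoposide, mean ± SD, n = 3). The 95% intervals of their log2 differences were narrow, from -0.045 to 0.13 for Klf6 and from -0.14 to 0.064 for Klf4. For Egr2 and Egr3 the intervals were wider, from -0.67 to 0.024 and from -0.43 to 0.024. Without DKO etoposide replicate 1 both passed as lower in DKO MEFs, with log2 differences of -0.58 and -0.37, and without Null etoposide replicate 1 Egr2 did, at -0.43. Egr2 and Egr3 also passed with DESeq2 size factors, without a filter and with the stricter filter on mean CPM, and Egr3 with DESeq2.

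Ier3 showed the largest difference after etoposide, 2.90-fold lower in DKO MEFs (log2 -1.53 ± 0.046 SE, 3 of 3 libraries, edgeR's quasi-likelihood test, Benjamini-Hochberg adjusted p = 2.38e-14). Ier5 turned from higher to lower (log2 -0.59 ± 0.040 SE), Ier2 to 1.35-fold lower, and Klf10 was 1.41-fold lower. Klf2 kept its excess, at 1.84-fold (log2 0.88 ± 0.13 SE). Egr1 was 1.29-fold lower (log2 -0.37 ± 0.12 SE, edgeR's quasi-likelihood test, Benjamini-Hochberg adjusted p = 0.0117), a call that was lost without DKO etoposide replicate 3 (-0.25) and with limma (-0.38).

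**Figure D3:**
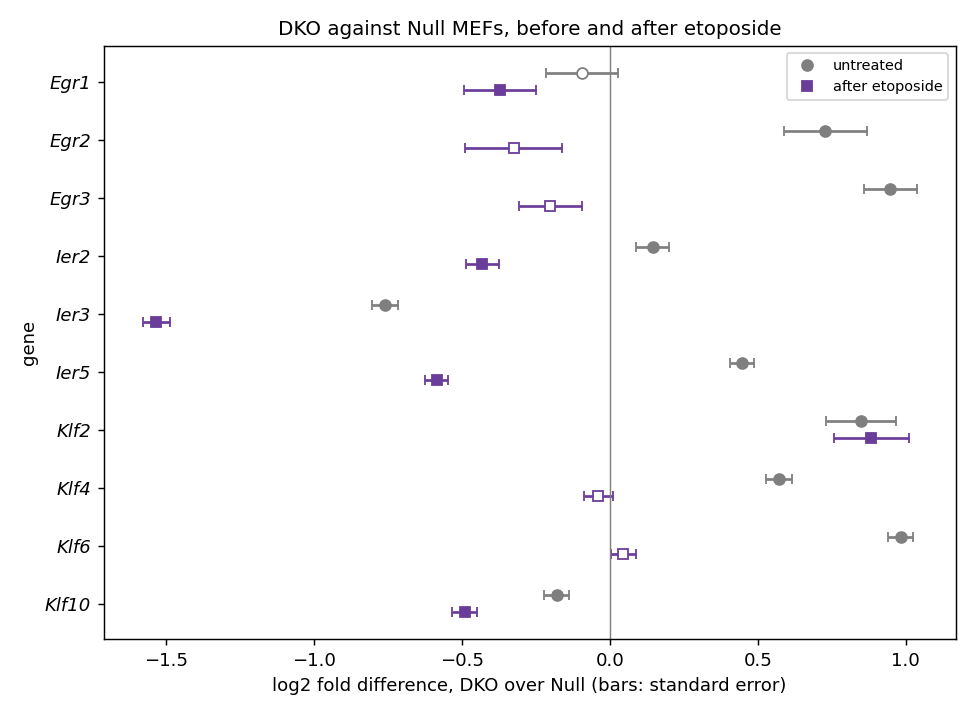
Log2 difference of each gene (vertical axis), DKO over Null MEFs, untreated (grey circles) and after etoposide (purple squares), with standard errors. Filled symbols passed the test at an adjusted p of 0.05; Klf6 went from 0.98 to 0.045, while Klf2 stayed at 0.85 and 0.88.

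Levels of different genes were compared per kilobase of exon in GENCODE M21, which the authors' own gene models may not match exactly. In Null control MEFs Ier2 was highest, at 147 ± 6.90 CPM per kb, followed by Ier3 at 130 ± 7.28 and Ier5 at 130 ± 1.75, which overlapped, and Klf6 at 118 ± 5.44. Klf10 and Egr1, at 51.4 ± 2.40 and 45.7 ± 7.61 CPM per kb, overlapped, and Klf4, Egr2, Egr3 and Klf2 followed at 18.6, 9.14, 5.94 and 4.04 CPM per kb without overlap. In DKO control MEFs Klf6 led at 234 ± 5.67 CPM per kb, above Ier5 at 177 ± 10.6 and Ier2 at 163 ± 11.6, which overlapped.

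After etoposide the IER genes held the 3 highest places per kb in both genotypes. In Null MEFs Ier3 and Ier5, at 157 ± 4.30 and 156 ± 5.30 CPM per kb, overlapped, and Ier2 followed at 130 ± 2.92. In DKO MEFs Ier5 and Ier2, at 104 ± 1.98 and 96.6 ± 7.18 CPM per kb, overlapped, and Ier3 followed at 54.1 ± 1.99. Klf6 was next in both, at 43.6 ± 2.39 and 45.0 ± 1.16 CPM per kb, and overlapped Egr1 in Null MEFs. Egr3 was the lowest in both, at 1.74 ± 0.0799 and 1.54 ± 0.302 CPM per kb, and overlapped its neighbour in that order, Klf2 in Null and Egr2 in DKO MEFs.

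The 10 genes are short. Their spans on the genome ran from 1240 bases (Ier3) to 9244 bases (Klf10), with a median of 5243, against a median of 23112 over the 14611 tested genes whose symbol matched GENCODE M21. No other gene annotated in GENCODE M21 overlapped any of the 10. RefSeq promoter windows matched 6 of the 10 genes, with 10 windows in all, and the GC box was in 7 of these 10, the E-box in 3 and the CArG box in 4. Over all windows the shares were 35.7%, 7.15% and 1.63%. Egr2 alone had 5 of the 10 windows, among them all 4 with a CArG box and 1 with an E-box. The EGR site GCGNGGGCG, whose letters can overlap a GC box, was in 2 of the 10 windows, those of Klf2 and Klf4, and in 5.55% of all windows. The CRE TGACGTCA was in 0 of the 10 and in 1.79% of all windows.

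The members of the same families outside the 10 were mixed. Of 15 listed relatives (Egr4, Ier5l and 13 other KLF genes) 14 were tested, all but Klf14, and 8 fell and 4 rose in Null MEFs, where 36.8% of all genes were called lower and 41.7% higher. In DKO MEFs 9 fell and 4 rose, where 31.3% of all genes were called lower and 44% higher. Some of these calls rest on low counts. Of the genes that rose in DKO MEFs, Klf1, Klf12 and Klf17 had at most 7 counts in a DKO control library. Klf1 and Klf17, which rose in Null MEFs too, had at most 25 counts in a Null control library. Of those that fell, Klf12 in Null and Egr4 in DKO MEFs stood at 0.949 and 2.57 CPM before etoposide. Klf9, which is induced by thyroid hormone and glucocorticoids, fell from 89.3 ± 2.04 to 21.0 ± 0.816 CPM in Null and from 117 ± 1.80 to 28.8 ± 0.677 CPM in DKO MEFs. Klf13 fell from 130 ± 10.2 to 38.9 ± 0.947 CPM in Null and from 410 ± 2.89 to 78.2 ± 7.96 CPM in DKO MEFs. Klf8 fell 2.17-fold and 2.12-fold. Klf11 rose, 2.96-fold in Null and 1.86-fold in DKO MEFs. Klf16 fell 1.94-fold and 1.64-fold, with an interaction of 0.24 ± 0.080 SE. That call was lost with DESeq2 (0.18), DESeq2 size factors (0.18), without Null etoposide replicate 2 (0.20) and without DKO etoposide replicate 2 (0.19).

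Ier5l, the gene closest to Ier5 by name, rose from 70.1 ± 6.30 to 98.8 ± 4.38 CPM in Null and fell from 85.0 ± 3.74 to 40.2 ± 1.87 CPM in DKO MEFs, with an interaction of -1.58 ± 0.081 SE. Klf3 fell 2.23-fold in DKO MEFs and had an interaction of -1.02 ± 0.084 SE. Its 1.10-fold fall in Null MEFs was called (log2 -0.13 ± 0.059 SE, edgeR's quasi-likelihood test, Benjamini-Hochberg adjusted p = 0.0482), but turned to 0.035 with library size alone and was lost without Null control replicate 1 (-0.12) or 3 (-0.14), or Null etoposide replicate 1 (-0.13) or 3 (-0.11). It was also lost with DESeq2 (-0.088), DESeq2 size factors (-0.088), limma (-0.13) and the stricter filter (-0.047). Over the 14 relatives, the interaction was called below 0 for 5 and above 0 for 2, with a median of -0.012. Over all genes 24.7% were called below and 29.9% above, with a median of 0.049. The 2 above 0 were Klf16, whose call was lost under several alternatives, and Klf12. The term of Klf12, 5.74 ± 0.93 SE, rests on 0, 1 and 0 counts in the DKO control libraries. The median also takes in other terms from low counts, none of them called. Those of Klf1, Klf15 and Klf17 were above 0 (1.2, 0.24 and 1.8), and that of Egr4 was below 0 (-1.4). The plot of interaction terms leaves these low-count genes out, as they average under 1 CPM.

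Both EGR co-repressors were called lower in both genotypes, as were 36.8% of all genes in Null and 31.3% in DKO MEFs. Nab2 went from 236 ± 5.67 to 73.8 ± 3.27 CPM in Null and from 195 ± 7.03 to 67.4 ± 1.52 CPM in DKO MEFs. Nab1 fell 1.91-fold in Null and 1.94-fold in DKO MEFs. Neither passed the interaction test, with terms of 0.14 ± 0.057 SE for Nab2 and -0.029 ± 0.049 for Nab1. That of Nab2 passed without Null control replicate 3 (0.16), DKO control replicate 2 (0.15) or Null etoposide replicate 2 (0.16), with limma (0.14) and with library size alone (0.24).

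The upstream regulators are kinases and transcription factors through which these genes are known to be induced. All 16 were called lower in Null MEFs, as were 36.8% of all genes, and 14 were lower and 1, Map2k2, was higher in DKO MEFs, against 31.3% and 44% of all genes. Their median log2 fold changes were -0.74 and -0.62. Srf fell from 278 ± 9.53 to 83.5 ± 3.67 CPM in Null and from 359 ± 8.88 to 106 ± 0.834 CPM in DKO MEFs. Its interaction term, -0.024 ± 0.055 SE, did not pass. The SRF cofactor Mkl1 fell 2.82-fold and 3.64-fold, and Mef2d fell 2.55-fold and 2.61-fold. The fall of Map2k2 in Null MEFs, 1.08-fold, turned to a log2 value of 0.052 with library size alone and was lost without Null etoposide replicate 2 (-0.084), with DESeq2 (-0.070), DESeq2 size factors (-0.070) and the stricter filter (-0.030).

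Before etoposide 13 of the 16 regulators were higher in DKO MEFs and 1, Mef2c, was lower, against 33.4% and 34.1% of all genes. Afterwards 11 were higher and 2 lower, against 36.9% and 35.2% of all genes. The interaction was called below 0 for 3 of the 16 and above 0 for 5, against 24.7% and 29.9% of all genes. The ternary complex factor Elk3 had the lowest term, -1.19 ± 0.053 SE, falling from 263 ± 0.462 to 65.6 ± 3.21 CPM in DKO and from 141 ± 2.36 to 80.3 ± 1.07 CPM in Null MEFs. Mef2a followed with -0.63 ± 0.064 SE. The highest terms were those of Mef2c, 1.23 ± 0.36 SE, and Map2k2, 0.39 ± 0.060. Mef2c stood at 9.16 ± 0.583 CPM in Null control and 0.0945 ± 0.0407 CPM in DKO control MEFs. It had at most 14 counts in any DKO library, and its change in DKO MEFs, log2 0.42 ± 0.34 SE, did not pass. Its term thus sets a 1.76-fold fall in Null MEFs against very low counts in DKO MEFs.

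Of the other early response genes, 32 in the list and all tested, 18 were higher and 10 lower in Null MEFs, with a median log2 fold change of 0.50, where 41.7% of all genes were called higher and 36.8% lower. In DKO MEFs 8 were higher and 22 lower, with a median of -0.72, where 44% of all genes were called higher and 31.3% lower. Dusp1, a phosphatase that switches off MAP kinases, rose from 20.9 ± 0.828 to 161 ± 12.2 CPM in Null and from 17.4 ± 0.714 to 52.0 ± 0.143 CPM in DKO MEFs. Btg2, an antiproliferative p53 target, rose from 93.2 ± 8.70 to 476 ± 3.63 CPM and from 158 ± 12.9 to 306 ± 3.38 CPM. Fos, a subunit of AP-1, rose from 24.8 ± 4.49 to 89.4 ± 4.96 CPM and from 27.7 ± 3.39 to 39.1 ± 4.33 CPM.

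Some genes of this list fell as Klf6 did. Sgk1, a kinase induced by serum and glucocorticoids, fell 2.47-fold in Null and 5.06-fold in DKO MEFs, Myc fell 2.75-fold and 4.38-fold, and Dusp5 fell 2.75-fold and 4.48-fold. The nuclear receptor genes Nr4a1 and Nr4a3 had the lowest interaction terms, -2.76 ± 0.20 and -2.46 ± 0.20 SE. Nr4a3 rose 2.18-fold in Null and fell 2.53-fold in DKO MEFs, as Ier3 and Ier5 rose and fell. Over the list of 32 the interaction was called below 0 for 28 genes and above 0 for 3, with a median of -1.23, against 24.7% below and 29.9% above over all genes. Before etoposide 21 genes of the list were higher and 10 lower in DKO MEFs, with a median of 0.49, against 33.4% and 34.1% of all genes. After etoposide 27 genes of the list were lower and 4 higher in DKO MEFs, against 35.2% and 36.9% of all genes. Dusp2 and Jund had the highest terms, 1.20 ± 0.40 and 0.44 ± 0.078 SE. The Dusp2 call was lost with limma (1.21) and without DKO control replicate 1 (0.88) or 2 (0.85), while without replicate 3 the term was 2.02. Dusp2 had only 6, 11 and 24 counts in the DKO control libraries. It stood at 0.204 ± 0.17 CPM there and at 6.87 ± 0.224 CPM in Null control MEFs, so its term rests on a low DKO baseline.

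**Figure D4:**
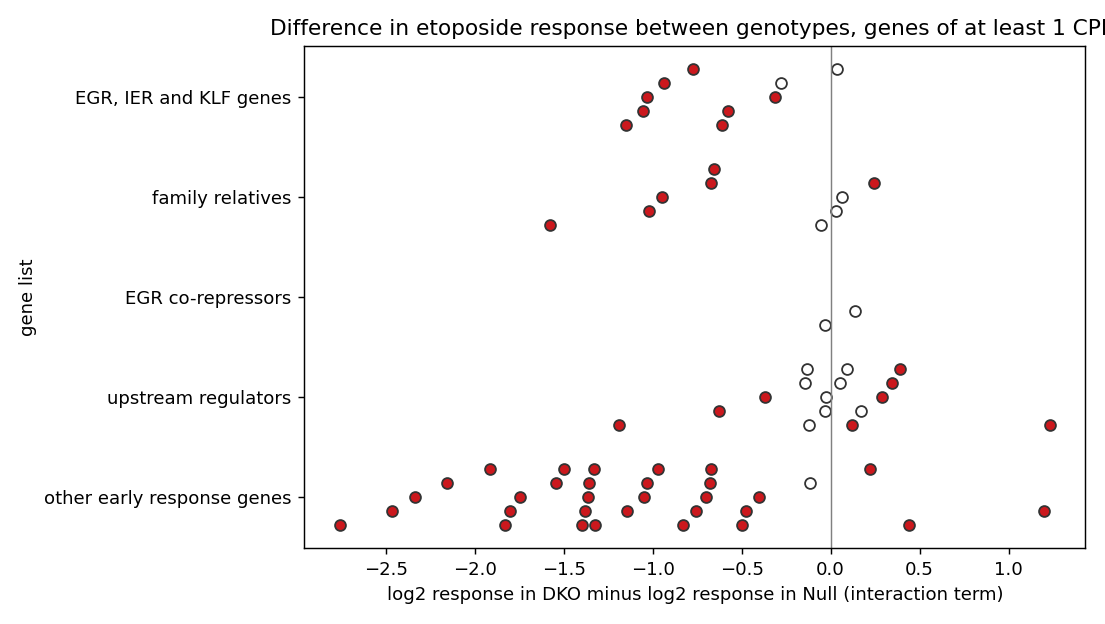
Interaction term of each gene averaging 1 CPM or more (horizontal axis, log2 response in DKO minus log2 response in Null MEFs), by gene list (vertical axis). Filled points passed the test at an adjusted p of 0.05; all but 1 of the 10 EGR, IER and KLF genes lay below 0, Klf2 being the exception at 0.034.

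For each of the 10 genes, the gene outside the 10 with the most alike profile was sought over the 12 libraries, by the root mean square difference of log2 CPM after centring each gene, among 11989 genes. Klf6 was closest to Sh3bp4, at 0.058, which stood at 93.5, 193, 34.4 and 37.4 CPM in Null control, DKO control, Null etoposide and DKO etoposide MEFs. Klf4 was closest to Hmgcs1 (0.086) and Ier5 to Zcchc24 (0.070). Ier3 was closest to Pde4b (0.099), which likewise stood higher after etoposide in Null MEFs (41.2 to 54.9 CPM) and lower in DKO MEFs (23.9 to 17.8 CPM). Klf10 was closest to Tra2a (0.073), Ier2 to Podnl1 (0.079), Egr1 to Ak5 (0.12), Klf2 to Kifc3 (0.13), Egr3 to Ldlrad4 (0.17) and Egr2 to Insig1 (0.22). Among the 10 themselves, Egr2 and Egr3 were 0.16 apart and Klf4 and Klf6 were 0.17 apart, whereas Ier3 was 0.51 from its nearest, Egr1, and Klf2 was 0.55 from its nearest, Klf6.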

How the data were processed

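RNA was measured in 12 libraries of MEFs, 3 per group, grouped by their labels. The authors deposited raw counts of reads per gene: per the study's methods, stranded total RNA libraries depleted of ribosomal RNA were sequenced, and uniquely mapped read pairs were aligned with HISAT2 and counted with HTSeq on GENCODE genes. The submitters' processing notes name featureCounts and mm10, while the table ends in 5 summary lines of the HTSeq kind. These lines were left out of library sizes; reads on no feature took 20.2% to 27.3% of a library and were highest in Null etoposide MEFs (25.1% to 27.3%), and their part in the results was not tested. The strand setting of the counting is not given in the sources used here.

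Counts were scaled with TMM factors (0.884 to 1.09) and filtered with filterByExpr. The 4 groups were fitted in 1 model with edgeR 4.0.16 in R 4.3.3 (glmQLFit, glmQLFTest), with Benjamini-Hochberg adjustment over 15220 genes and a threshold of 0.05. The contrasts were etoposide against control in each genotype, DKO against Null in each condition, and the interaction. An SE is the log2 fold change over the square root of F, and 95% intervals use the test's degrees of freedom and are not adjusted. Pairs of libraries within a group differed by 10.7 to 22.0 in chi-square per degree of freedom, where sampling noise alone gives 1, so none was a repeat deposit.

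The 10 genes and the gene lists were chosen with earlier results of these data known, and no test was run over a list. From the lists of relatives, regulators and other early genes, the named genes were those called with a mean of at least 1 CPM that had the 3 highest and 3 lowest log2 fold changes in Null MEFs and the 2 highest and 2 lowest interactions. Only rises counted as highest and only falls as lowest, so some lists gave fewer. The genes Tfeb, Tfe3, Nab1, Nab2, Srf and Fos were always named. Coordinates and lengths came from GENCODE M21 (GRCm38), and promoter sequences from RefSeq (GRCm38.p6). No other annotated gene overlapped any of the 10. The alternatives were DESeq2 1.42.0, limma 3.58.1 (trend, robust), DESeq2 size factors or library size alone in edgeR, no filter, a mean of at least 1 CPM, the replicate number as a block, only the 6 libraries compared, and leaving out each library in turn. Plots were drawn with matplotlib 3.10.9 in Python 3.11.15.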

Additional observations from a re-analysis of the deposited data

Results flagged for a closer look

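The etoposide response of 8 of the 10 genes differed between DKO and Null MEFs by the interaction term of the fit, as did that of 54.6% of all genes tested. The log2 terms, DKO response minus Null response, were -1.054 for Egr2, -1.15 for Egr3, -0.5769 for Ier2, -0.7739 for Ier3, -1.033 for Ier5, -0.6113 for Klf4, -0.9387 for Klf6 and -0.3112 for Klf10. For Ier3 and Ier5 the direction differed as well, up in Null and down in DKO MEFs.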

How the results depend on the processing

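Of the log2 fold changes of the 10 genes recomputed under the alternatives, 726 stayed on the same side of the threshold, 14 passed where they had not and 10 no longer passed. Among the 726, 15 changed sign, none of them called either way. The 24 calls that changed belonged to Egr1, Egr2, Egr3 or Ier2. Among the other named genes 2057 stayed on the same side, 18 of these with a changed sign and not called either way, 16 passed where they had not, and 24 no longer passed. In 2 more, called as reported, the sign changed and the call was lost: with library size alone in Null MEFs after etoposide, Klf3 was at 0.0346 and Map2k2 at 0.05226. The cause was not tested. The counts of genes called, both directions together, stayed within 1.5 times those reported. Counts by direction moved further: with library size alone 2975 genes were called lower by etoposide in DKO MEFs, in place of 4757. Leaving out a library gave 9 to 10 of the 10 genes called for etoposide in Null and 10 in DKO MEFs. For DKO against Null it gave 8 to 9 before etoposide and 5 to 8 after it, and for the interaction 8.

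With the replicate number as a block (replicate block), 11873 genes were called for etoposide in Null and 11374 in DKO MEFs, 10206 for DKO against Null before and 10886 after etoposide, and 8196 for the interaction. Of the 10 genes, the block changed only the calls of Egr1, which then passed for etoposide in Null MEFs (-0.16) and for the interaction (-0.30). Same-numbered libraries of different groups had correlations across genes from -0.032 to 0.0429, against -0.0471 to 0.0476 for other pairs.

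With 3 libraries per group, and labels that name no more than 1 line per genotype, the differences describe these cells only.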

Other observations

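Egr4, the EGR family gene with the lowest counts, was singled out after its values were seen. It stood at 0.295, 0.184 and 0.185 CPM in the Null control libraries and at 2.81, 2.82 and 2.08 CPM in the DKO control libraries, 11.4-fold higher (log2 3.51 ± 0.35 SE). After etoposide it was at 0.118 ± 0.0896 CPM in Null and 0.507 ± 0.0725 CPM in DKO MEFs.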
